A study of Homo sapiens with 11 samples.

Results

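Collagens and laminins were followed in IMR32 cells, a human neuroblastoma line with amplification of the oncogene MYCN, as all probe sets annotated with 1 symbol of the form COL, number, A, number, or LAMA, LAMB or LAMC and a number. On the array 135 probe sets of 53 genes met this rule, of 54675 probe sets in all and of 19775 genes with a probe set of 1 symbol. The tested cells carried a lentivirus with a short hairpin RNA directed at MYCN (TRCN0000020696) and were collected 24, 48 or 72 h later, with arrays A and B at each hour. The control cells carried the control hairpin SHC002 in the same kind of virus, with 1 array at each hour, and 2 arrays held cells without virus, labelled 0 h. All 11 arrays came from this 1 line, cultured with fetal calf serum, and only 1 hairpin against MYCN was used. Whether a group's arrays hold separate cultures is not in the labels; p-values here reflect how far arrays of a group differed, and that spread may be technical only.

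Collagens and laminins are secreted proteins of the extracellular matrix, each assembled in the cell as a helical or coiled trimer of chains. Fibrillar collagens form the fibres of connective tissue, type IV collagen and laminins form the sheet-like basement membrane under epithelia and around vessels and nerve bundles, and other collagens bind to fibrils or span the cell membrane. In neuroblastoma, collagen and laminin are known both from the stroma around the tumour cells and as substrates on which such cells attach and extend neurites.

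Signals were deposited as linear intensities scaled to a common trimmed mean, and the median lay between 14.9 and 16.7 on the 11 arrays. Replicate arrays correlated across genes at r = 0.987 to 0.995, and the pair labelled shMYCN at 48 h was the least alike (SD of its log2 differences 0.271, against 0.172 for the pair without virus). The brightest of the 10 probe sets of the targeted gene did not separate the groups, and the others are not given here. This brightest probe set measured 4567.4 to 5623.7 in the 6 arrays labelled shMYCN and 5055.3 to 5389.7 in the 3 control virus arrays. Without virus it measured 5040.1 and 4507.4. Its log2 fold change was -0.02 ± 0.08 for MYCN (SE, limma adjusted p = 0.866). The tested arrays are therefore called labelled shMYCN throughout, and every direction below rests on that label.

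Of the 53 genes, 26 passed the filter on dim genes and were tested, each through its brightest probe set. The other 27 were dim, with no signal above 23.7 on any array: COL1A2, COL3A1, COL4A3, COL4A4, COL4A5, COL4A6, COL5A3, COL6A3, COL6A5, COL6A6, COL8A1, COL8A2, COL9A1, COL9A3, COL10A1, COL12A1, COL15A1, COL18A1, COL19A1, COL20A1, COL21A1, COL24A1, COL28A1, LAMA2, LAMA4, LAMB3 and LAMB4. The dimmest gene kept was COL23A1, with a mean signal of 15.7, and the brightest left out was COL12A1, with 13.9. By role, 7 of 11 fibrillar genes were tested, 2 of 6 type IV genes, 3 of 7 beaded-filament genes, 4 of 10 fibril-associated genes, 3 of 3 transmembrane collagens, COL7A1 of the anchoring fibrils, 2 of 4 laminin alpha genes, 2 of 4 beta genes and 2 of 2 gamma genes. None of the 3 hexagonal-network genes and neither of the 2 multiplexin genes passed. A gene that passes through the arrays where it is bright is kept more easily, so counts below are of tested genes, not of all members. Signals of different probe sets are not comparable as levels, and values are set against each other only within a probe set.

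The question of the main comparison was how these genes stood in cells labelled shMYCN against control virus, as the mean of the 3 hours. Of the 26 tested genes 6 were higher (COL1A1, COL9A2, COL26A1, COL16A1, COL5A2 and LAMB1), 4 were lower (COL4A1, COL5A1, LAMA1 and COL2A1) and 16 did not pass an adjusted p of 0.05. The genes called were 38.5% of those tested, while 37.9% of all 11865 genes tested were called, so the share is near the background and is no result about the family. The median log2 fold change was 0.10 over the 26 genes and 0.04 over all genes. With arrays scaled to a common median, 4 of the members were higher and 5 lower, and of all genes 1996 were higher and 2318 lower, against 2629 higher and 1871 lower as deposited.

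**Figure D1:**
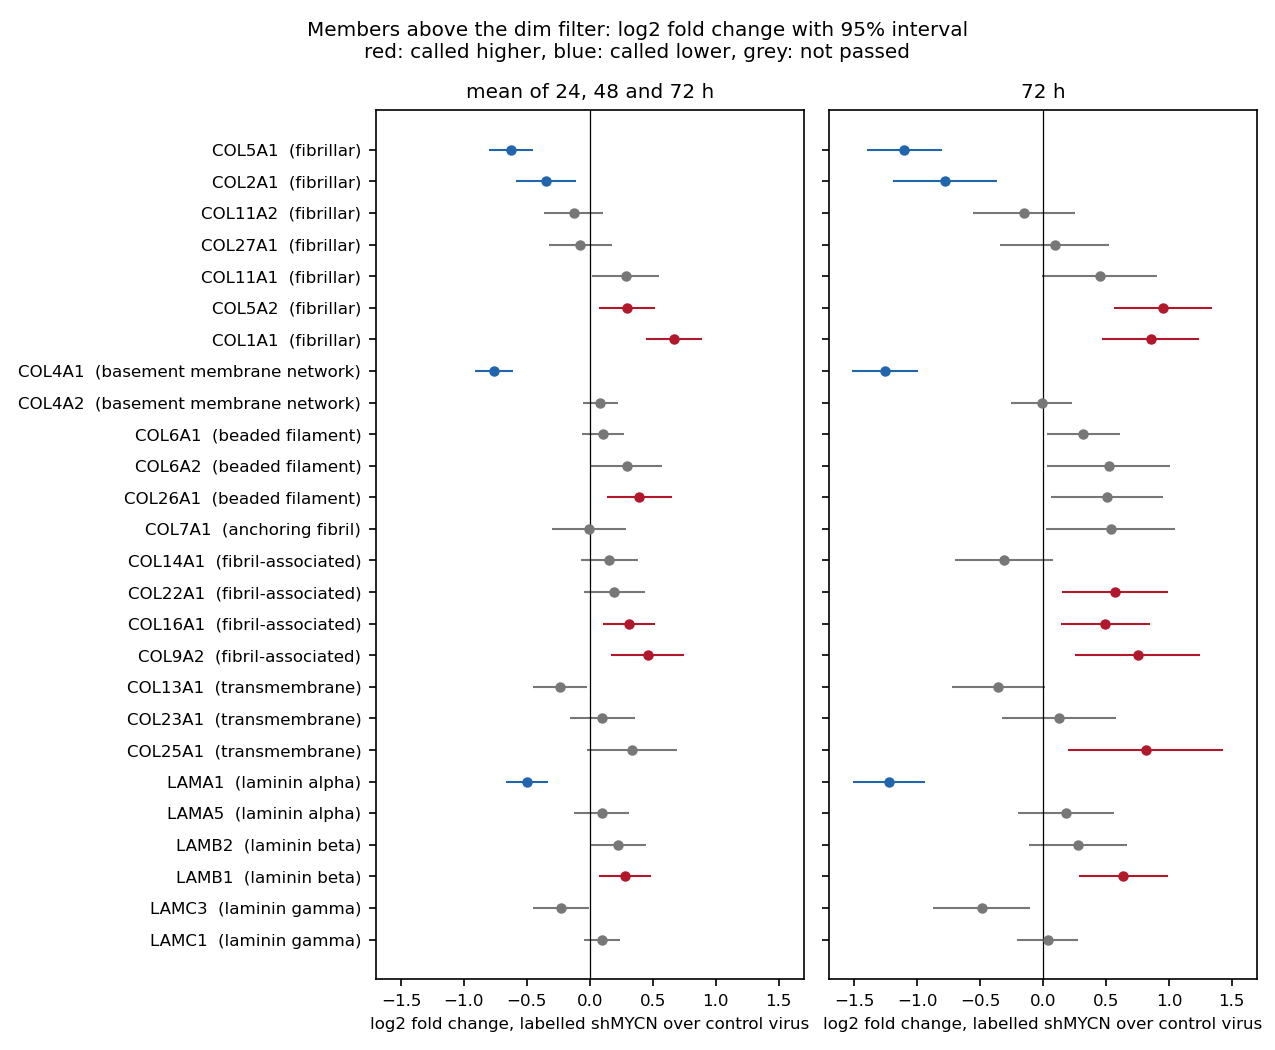
Log2 fold change (arrays labelled shMYCN over control virus) of the 26 tested genes, ordered by role down the page, as the mean of 3 hours on the left and at 72 h on the right. Points are estimates, bars 95% intervals, and colour marks genes called higher (red), called lower (blue) or not passed (grey). COL4A1 (-0.76 and -1.26) lies at the low end in both panels, while COL4A2 (0.08 and -0.01) lies at 0.

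COL4A1 and COL4A2 encode the chains that together make the common form of type IV collagen, the network of basement membranes. COL4A1 measured 172.3 and 157.3 at 24 h, 119.4 and 119.7 at 48 h, and 80.3 and 83.1 at 72 h in the arrays labelled shMYCN, against 194, 221.1 and 217.3 in the control virus arrays of these hours, and 196.9 and 189.6 without virus. All 6 arrays labelled shMYCN were below all 5 others, and those of 72 h were the lowest. Its log2 fold change was -0.76 ± 0.07 for the mean of 3 hours (SE, limma adjusted p = 1e-05) and -1.26 ± 0.12 at 72 h (limma adjusted p = 2.12e-05), or 2.39-fold lower. At 24 h the fold change was -0.22 ± 0.12 and did not pass (limma adjusted p = 0.551), and at 48 h it was -0.81 ± 0.12 (limma adjusted p = 0.00128).

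COL4A2 measured 630.7 and 660.9 at 24 h, 730.5 and 830.4 at 48 h, and 660.2 and 724.1 at 72 h in the arrays labelled shMYCN, against 654.5, 640.5 and 697 in the control virus arrays, and 591 and 634 without virus. The groups overlapped, with the highest signals at 48 h in arrays labelled shMYCN. The log2 fold change of COL4A2 at 72 h was -0.01, with a 95% interval of -0.25 to 0.23, and for the mean of 3 hours 0.08, with an interval of -0.06 to 0.22 (limma adjusted p = 0.339). The whole of the 72 h interval of COL4A1 (-1.52 to -0.99) lay below that of COL4A2, though the difference between the 2 genes was not tested. Each gene had a second probe set above the filter: that of COL4A1 also fell (-0.48 ± 0.09, limma adjusted p = 0.00238 over probe sets) and that of COL4A2 gave 0.07 ± 0.08 (limma adjusted p = 0.58). The other 4 type IV genes were among the dim ones.

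COL4A1 and COL4A2 lie beside each other on chromosome 13 with no protein-coding gene between them and are transcribed in opposite directions from a shared start region. The sequence between the annotated start sites is shown because COL4A1 was called lower and its neighbour COL4A2 did not pass, a difference that was not itself tested. It spans chr13:110307158-110307283 in GRCh38.p14 (RefSeq), is given on the plus strand, and is 126 bases long. Capitals mark the 1 CCAAT match and the 1 GC box (GGGCGG) found in it on either strand.
COL4A1 and COL4A2, between the start sites: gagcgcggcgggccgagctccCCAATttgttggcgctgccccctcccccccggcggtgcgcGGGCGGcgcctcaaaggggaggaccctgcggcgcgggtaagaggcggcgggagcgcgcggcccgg

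LAMA1, LAMB1 and LAMC1 encode the alpha, beta and gamma chains of a laminin trimer of early basement membranes. LAMA1 measured 149.3 and 175.3 at 24 h, 121.7 and 117.7 at 48 h, and 73 and 72.1 at 72 h in the arrays labelled shMYCN, against 142.2, 169.6 and 190.6 in the control virus arrays, and 161.2 and 162.5 without virus. The arrays overlapped at 24 h, and at 48 and 72 h all 4 labelled shMYCN were below every array without that hairpin. The log2 fold change of LAMA1 was 0.17 ± 0.13 at 24 h (limma adjusted p = 0.709), -0.45 ± 0.13 at 48 h (limma adjusted p = 0.0357, and up to 0.066 without 72 h A, 72 h B or either array without virus, which loses the call) and -1.22 ± 0.13 at 72 h (limma adjusted p = 4.54e-05), or 2.33-fold lower. The 48 h call was also lost with no filter, the mean of its probe sets or a threshold of 0.01 (limma adjusted p up to 0.152). That for the mean of 3 hours was lost with the mean of its probe sets or under the additive model (limma adjusted p up to 0.0532). In the main fit the log2 fold change for the mean of 3 hours was -0.50 ± 0.08 (limma adjusted p = 3.69e-04). Without the control virus array of 72 h, where the mean runs over the other hours, that value was -0.14 (limma adjusted p = 0.341), and without that of 24 h it was -0.84.

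LAMB1 measured 469.5 and 385.4 at 24 h, 517.7 and 387.8 at 48 h, and 567.1 and 574.1 at 72 h in the arrays labelled shMYCN, against 456.3, 361.3 and 361.5 in the control virus arrays, and 462.4 and 412.2 without virus. At 72 h both arrays labelled shMYCN were above every array without that hairpin, and at 24 and 48 h the signals overlapped. LAMB1 was called higher at 72 h (log2 fold change 0.64 ± 0.16, limma adjusted p = 0.0104), and its second probe set gave 0.36 ± 0.10 at 72 h (limma adjusted p = 0.0202 over probe sets) but 0.07 ± 0.06 for the mean of 3 hours (limma adjusted p = 0.391). The call for the mean of 3 hours (0.28 ± 0.09, limma adjusted p = 0.0344) was lost without any of 5 arrays (24 h A, 72 h A or 72 h B labelled shMYCN, or control virus at 48 or 72 h), where it lay as low as 0.10 (limma adjusted p = 0.596), and was 0.47 without the control virus array of 24 h. The LAMB1 call for the mean of 3 hours was also lost under median scaling, with no filter and with the mean of its probe sets. The same held without trend, under the additive model and at a threshold of 0.01 (limma adjusted p up to 0.113 over these settings). The 250 bases before the annotated start of LAMB1 are shown as those of the laminin that rose while LAMA1 fell. They span chr7:108003162-108003411 in GRCh38.p14 (RefSeq), minus strand, and capitals mark 4 GC boxes, a pair of which overlap.
LAMB1, before the start site: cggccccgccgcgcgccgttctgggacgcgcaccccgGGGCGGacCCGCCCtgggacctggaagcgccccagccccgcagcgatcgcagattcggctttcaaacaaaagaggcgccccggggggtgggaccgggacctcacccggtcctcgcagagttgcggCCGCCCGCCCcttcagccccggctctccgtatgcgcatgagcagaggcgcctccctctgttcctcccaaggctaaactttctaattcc

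LAMC1 did not pass at 72 h (0.04, 95% interval -0.21 to 0.28) or for the mean of 3 hours (0.09 ± 0.06, limma adjusted p = 0.272). Its signal was 365.2 to 476.4 in the arrays labelled shMYCN, 331.2 to 461.7 in the control virus arrays, and 331 and 343.7 without virus. Among the other laminins, LAMA5, an alpha chain of mature basement membranes, gave 0.18 ± 0.17 at 72 h, LAMB2, a beta chain of synaptic and kidney basement membranes, 0.28 ± 0.18, and LAMC3, a gamma chain, -0.49 ± 0.18 (limma adjusted p = 0.0526). None of these passed against control virus.

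**Figure D2:**
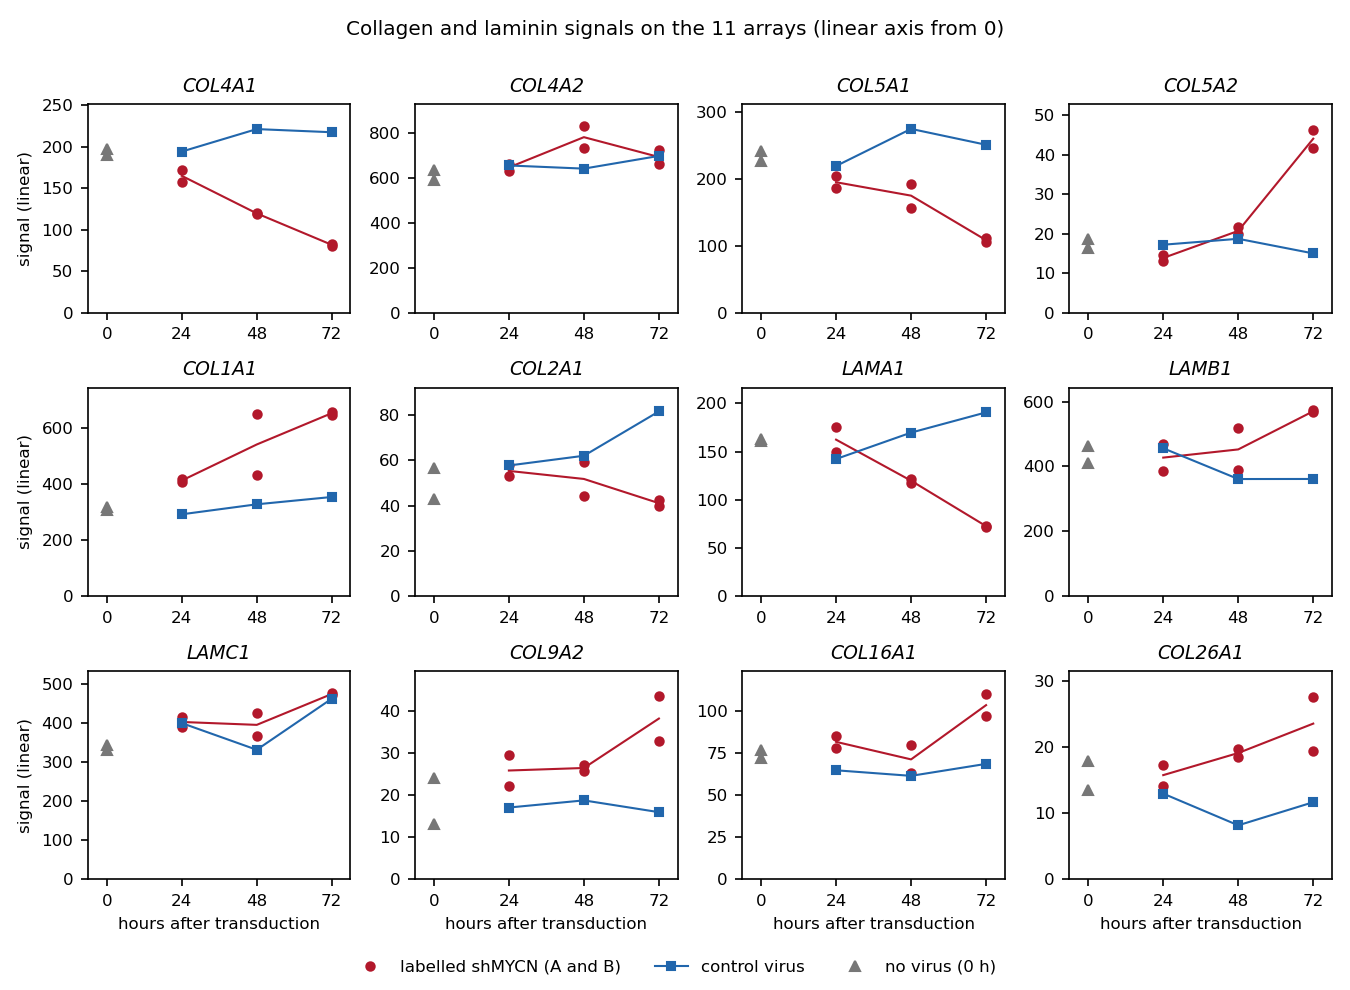
Signal (linear, each axis from 0) of 12 collagen and laminin genes against hours, with red dots for arrays A and B labelled shMYCN and a line through their mean, blue squares for the control virus array of each hour and grey triangles for the arrays without virus at 0 h. COL4A1, COL5A1 and LAMA1 reach 80.3 and 83.1, 106 and 111.2, and 73 and 72.1 at 72 h in the arrays labelled shMYCN, while COL5A2 reaches 46.3 and 41.8.

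COL5A1 and COL5A2 encode chains of type V collagen, a minor component of fibrils needed to start them. COL5A1 measured 204.8 and 186.1 at 24 h, 157.3 and 193.4 at 48 h, and 106 and 111.2 at 72 h in the arrays labelled shMYCN, against 219.8, 275.4 and 251.6 in the control virus arrays, and 227.2 and 242.7 without virus. All 6 arrays labelled shMYCN were below all 5 others. The log2 fold change of COL5A1 was -0.62 ± 0.08 for the mean of 3 hours (limma adjusted p = 1.06e-04), -0.61 ± 0.14 at 48 h (limma adjusted p = 0.0112) and -1.10 ± 0.14 at 72 h (limma adjusted p = 1.14e-04). The mean of 3 hours was -0.39 (limma adjusted p = 0.0198) without the control virus array of 72 h, and the 48 h call was lost with the mean of its probe sets (-0.17, limma adjusted p = 0.292) and at 0.01. Its other probe sets moved less: they gave -0.15 ± 0.10 and -0.14 ± 0.10 for the mean of 3 hours, and -0.52 ± 0.18 (limma adjusted p = 0.0525) and -0.35 ± 0.17 at 72 h, and neither passed. The 250 bases before its start are shown as those of a collagen that fell, like COL4A1, with all 6 arrays below the 5 others. They span chr9:134641553-134641802 in GRCh38.p14 (RefSeq), plus strand, and capitals mark 2 GC boxes.
COL5A1, before the start site: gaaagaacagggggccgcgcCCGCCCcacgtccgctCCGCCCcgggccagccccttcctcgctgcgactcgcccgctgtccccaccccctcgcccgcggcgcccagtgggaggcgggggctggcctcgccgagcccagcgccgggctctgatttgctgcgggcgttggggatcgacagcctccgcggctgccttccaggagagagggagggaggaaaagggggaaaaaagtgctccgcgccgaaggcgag

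COL5A2 measured 13 and 14.7 at 24 h, 19.8 and 21.6 at 48 h, and 46.3 and 41.8 at 72 h in the arrays labelled shMYCN, against 17.2, 18.7 and 15 in the control virus arrays, and 16.4 and 18.6 without virus. It was near the dim filter on every array except the pair of 72 h, which stood above all others. Its log2 fold change was 0.95 ± 0.18 at 72 h (limma adjusted p = 0.00169), and the offset of 16 understates the change of a gene this dim. The call for the mean of 3 hours (0.29 ± 0.10, limma adjusted p = 0.0411) was lost without any of 8 of the 11 arrays (all but 48 h A labelled shMYCN and control virus at 24 and 48 h), and was -0.04 (limma adjusted p = 0.875) without the control virus array of 72 h. The COL5A2 call for the mean of 3 hours was also lost with an offset of 1, quantile or median scaling, or no filter. The same held with the letter block, under the additive model and at a threshold of 0.01 (limma adjusted p up to 0.202 over these settings). No RefSeq promoter entry was held for COL5A2, LAMA1, COL1A1 or COL2A1.

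COL1A1 encodes the main chain of type I collagen, the chief fibrillar collagen. It measured 407.4 and 418.3 at 24 h, 651.3 and 432.2 at 48 h, and 658.6 and 648.7 at 72 h in the arrays labelled shMYCN, against 292.2, 327.9 and 354.1 in the control virus arrays, and 317 and 308.5 without virus. It was the 1 tested member with all 6 arrays labelled shMYCN above all 5 others. The log2 fold change of COL1A1 was 0.67 ± 0.10 for the mean of 3 hours (limma adjusted p = 3.78e-04), 0.48 ± 0.18 at 24 h (limma adjusted p = 0.312) and 0.86 ± 0.18 at 72 h (limma adjusted p = 0.00309). Its 3 other tested probe sets differed: the second gave 0.66 ± 0.10 (limma adjusted p = 4.41e-04 over probe sets), the third 0.00 ± 0.08 and the dimmest 0.19 ± 0.12. At 72 h the second gave 1.04 ± 0.17 (limma adjusted p = 9.91e-04) and the third 0.51 ± 0.15 (limma adjusted p = 0.0235). COL1A2, whose product completes the type I trimer, did not exceed 14 on any of its 3 probe sets.

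COL2A1, the fibrillar collagen of cartilage, measured 57.7 and 52.9 at 24 h, 59.3 and 44.2 at 48 h, and 42.4 and 39.7 at 72 h in the arrays labelled shMYCN, against 57.7, 62 and 81.6 in the control virus arrays, and 56.7 and 43.1 without virus. The pair of 72 h lay below all other arrays, but the low array without virus was near them. The log2 fold change of COL2A1 was -0.35 ± 0.11 for the mean of 3 hours (limma adjusted p = 0.0264) and -0.78 ± 0.19 at 72 h (limma adjusted p = 0.00818). The control virus array of 72 h was the highest of all, and without it the mean over the other hours was -0.13 (limma adjusted p = 0.555); the call was also lost without 24 h B or 72 h B labelled shMYCN. That call of COL2A1 was lost too with no filter, the letter block, the additive model or a threshold of 0.01 (limma adjusted p up to 0.112). COL11A1, COL11A2 and COL27A1, the other fibrillar genes tested, did not pass against control virus.

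Among the fibril-associated collagens, which sit on fibrils made of other collagens, COL9A2 and COL16A1 rose. COL9A2, a chain of the collagen that covers cartilage fibrils, measured 22.2 and 29.6 at 24 h, 25.8 and 27.2 at 48 h, and 33 and 43.5 at 72 h in the arrays labelled shMYCN, against 17.1, 18.8 and 16 in the control virus arrays, and 13.2 and 24.1 without virus. Each array labelled shMYCN was above the control virus array of its hour. The log2 fold change of COL9A2 was 0.46 ± 0.13 for the mean of 3 hours (limma adjusted p = 0.0169) and 0.75 ± 0.23 at 72 h (limma adjusted p = 0.0244). Both calls were lost with no filter, the mean of its probe sets, the letter block or a threshold of 0.01 (limma adjusted p up to 0.147). The first was lost without the control virus array of 72 h (0.31, limma adjusted p = 0.219) and the second without 72 h B labelled shMYCN (0.61, limma adjusted p = 0.123).

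COL16A1 measured 84.9 and 78.2 at 24 h, 62.8 and 79.5 at 48 h, and 96.8 and 109.8 at 72 h in the arrays labelled shMYCN, against 64.7, 61.4 and 68.5 in the control virus arrays, and 71.9 and 77 without virus. The pair of 72 h was above all other arrays. Its log2 fold change was 0.31 ± 0.09 for the mean of 3 hours (limma adjusted p = 0.0218) and 0.50 ± 0.16 at 72 h (limma adjusted p = 0.0353). Both calls were lost with no filter, the letter block or a threshold of 0.01, and that of 72 h under median scaling too (limma adjusted p up to 0.0917). The first was lost without 24 h A or 72 h B labelled shMYCN or the control virus array of 72 h, as low as 0.22 (limma adjusted p = 0.228), and the second without any of 6 arrays (24 h A and B, 72 h A and B, and both without virus), as low as 0.42 (limma adjusted p = 0.151).

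COL22A1, a fibril-associated collagen of tissue junctions, was called at 72 h (0.57 ± 0.19, limma adjusted p = 0.0381), with 28.7 and 33.4 in the arrays labelled shMYCN, against 15.6 in the control virus array. COL14A1, which binds type I fibrils, was called at 48 h (0.59 ± 0.18, limma adjusted p = 0.0413), with 35.1 and 30 against 16.2, and gave -0.31 ± 0.18 at 72 h. Its second tested probe set went the other way at 48 h, with 16 and 12.2 in the arrays labelled shMYCN against 21.9. The 48 h call of COL14A1 was lost with no filter, the letter block or a threshold of 0.01 (limma adjusted p up to 0.0905). The COL22A1 call was lost without 72 h A, 72 h B or either array without virus (limma adjusted p up to 0.14), and with an offset of 1, quantile or median scaling, no filter, the mean of its probe sets, the letter block or a threshold of 0.01 (limma adjusted p up to 0.193). The 5 arrays without the hairpin average 14.6 for COL22A1, below the filter of about 14.8, so it was tested through the arrays where it is high. The COL14A1 call was lost without any of 7 arrays: the pairs labelled shMYCN at 24 h and 72 h, 48 h A, and both arrays without virus (limma adjusted p up to 0.107).

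COL26A1, grouped with the beaded-filament collagens, measured 14.2 and 17.4 at 24 h, 19.8 and 18.5 at 48 h, and 19.5 and 27.7 at 72 h in the arrays labelled shMYCN, against 13, 8.2 and 11.7 in the control virus arrays, and 13.6 and 18 without virus. The arrays labelled shMYCN were each above the control virus array of their hour, but the higher array without virus lay among them. Its log2 fold change for the mean of 3 hours was 0.39 ± 0.12 (limma adjusted p = 0.0208), and was lost without 72 h B labelled shMYCN or the control virus array of 48 h or 72 h, as low as 0.32 (limma adjusted p up to 0.141). This call was also lost with the letter block or a threshold of 0.01 (limma adjusted p up to 0.088). The 5 arrays without the hairpin average 12.9 for COL26A1, below the filter, so it too was tested through the arrays where it is high. COL6A1 and COL6A2, neighbours on chromosome 21 and chains of the microfibril collagen VI, gave 0.32 ± 0.13 and 0.52 ± 0.22 at 72 h and did not pass against control virus (limma adjusted p = 0.0866 and 0.0955).

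COL25A1, a membrane-spanning collagen made by neurons, was called at 72 h (0.82 ± 0.28, limma adjusted p = 0.0428), with 168 and 125.6 in the arrays labelled shMYCN, against 75.6 in the control virus array. The call was lost without 72 h A, 72 h B or either array without virus (limma adjusted p up to 0.199), and under 8 of the 9 other settings, all but an offset of 64 (limma adjusted p up to 0.122). Its 2 other tested probe sets differed at 72 h, with -0.23 ± 0.21 for the next brightest and 0.40 ± 0.205 for the dimmest. Neither passed (limma adjusted p = 0.469 and 0.178 over probe sets). COL13A1 and COL23A1, the other membrane-spanning collagens, gave -0.36 ± 0.17 and 0.13 ± 0.21 at 72 h, and neither passed. COL7A1, the collagen of anchoring fibrils, gave 0.54 ± 0.23 at 72 h (limma adjusted p = 0.0989).

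The comparison was also made at each hour. At 24 h, 0 of the 26 passed in limma, 1 was at an unadjusted p under 0.05 (COL1A1), and 0.708% of all genes were called, with 11.5% at an unadjusted p under 0.05. The 84 genes called at 24 h were 3 and 14 without 24 h A and 24 h B labelled shMYCN, and 401 and 413 without 48 h A and 48 h B, so this background is itself uncertain. At 48 h, 2 were higher and 3 lower, 19.2% of those tested against a background of 17.0%, with COL1A1 at 0.67 ± 0.18 (limma adjusted p = 0.0236). This value of COL1A1 was 0.38 without 48 h A and 0.96 without 48 h B labelled shMYCN, and its call was lost with no filter, with the mean of its probe sets (0.25, limma adjusted p = 0.145), without trend and at 0.01. At 72 h, 7 were higher (COL1A1, COL5A2, LAMB1, COL9A2, COL16A1, COL22A1 and COL25A1) and 4 lower (COL4A1, LAMA1, COL5A1 and COL2A1), 42.3% against 34.0% over all genes (under median scaling, 4 higher and 5 lower). The members' median at 72 h was 0.23, and that of all genes 0.04. The 72 h calls of COL4A1, LAMA1, COL5A1, COL5A2, COL1A1 and COL2A1 were kept when each of the 10 other arrays was left out in turn. That of LAMB1 was kept too, but was lost at a threshold of 0.01.

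**Figure D3:**
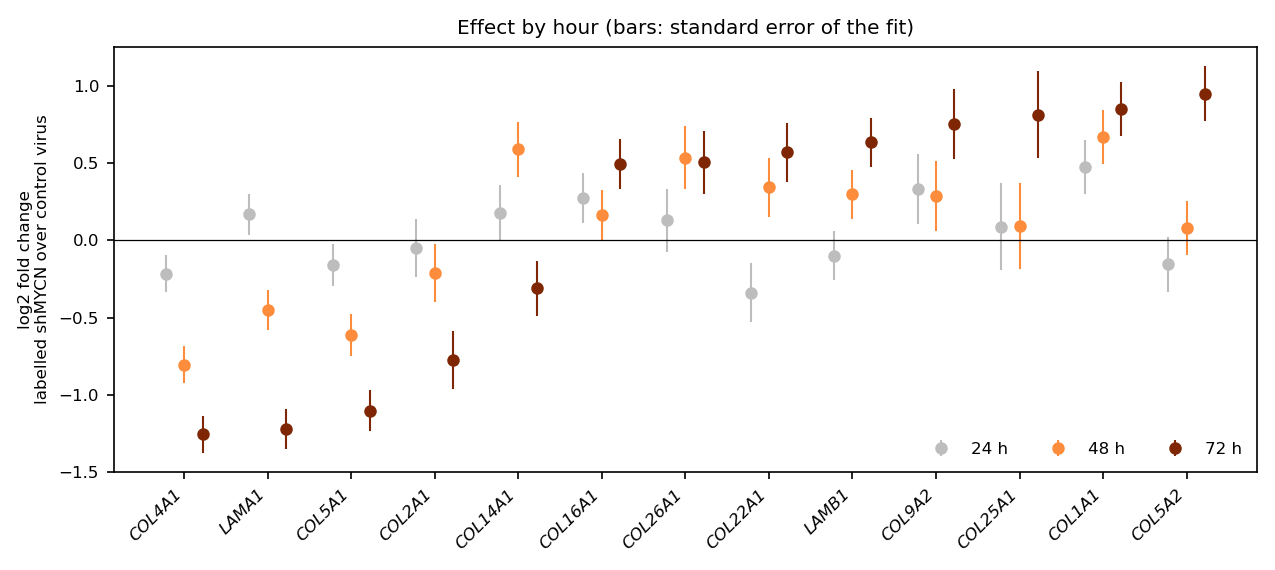
Log2 fold change (arrays labelled shMYCN over control virus) at 24, 48 and 72 h for the 13 members called in the mean of 3 hours or at an hour, with bars for the standard error of the fit. LAMA1 runs through 0.17, -0.45 and -1.22, COL4A1 through -0.22, -0.81 and -1.26, and COL5A2 through -0.15, 0.08 and 0.95.

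Whether the effect at 72 h differed from that at 24 h was tested directly. The difference passed for LAMA1 (-1.39 ± 0.19, limma adjusted p = 0.00159), COL4A1 (-1.04 ± 0.17, limma adjusted p = 0.00405), COL5A1 (-0.94 ± 0.19, limma adjusted p = 0.0116) and COL5A2 (1.11 ± 0.25, limma adjusted p = 0.0184). These were 15.4% of the tested members, against 10.3% of all genes. The call of COL5A1 was lost without 24 h A labelled shMYCN (limma adjusted p = 0.0533), and that of COL5A2 without 24 h A or 72 h A labelled shMYCN (limma adjusted p up to 0.0608). The number of members called was 8 without 48 h A or without 48 h B labelled shMYCN, where 20.9% of all genes were called, and 2 without 24 h A, where 4.69% were.

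Within the arrays labelled shMYCN, 72 h against 24 h, 6 members were higher (COL25A1 1.06, COL5A2 1.01, COL22A1 0.80, COL1A1 0.64, COL11A1 0.52 and LAMB1 0.41 on the log2 scale) and 4 lower (LAMA1 -1.01, COL4A1 -0.89, COL5A1 -0.76 and LAMC3 -0.44). That was 38.5% of the members, against 36.4% of all genes. Under median scaling 4 were higher and 5 lower. COL11A1, a fibrillar collagen of cartilage, measured 49.7 and 49.1 at 72 h and 37.2 and 23.3 at 24 h. COL11A1 and LAMB1 were each lost without 24 h B, 72 h A or 72 h B, COL25A1 without 24 h A or 72 h A, and LAMC3 without any of these 4 arrays (limma adjusted p up to 0.265). Without 24 h B the value of COL11A1 was 0.30 and that of LAMB1 0.27. This comparison shares its arrays with those above.

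The arrays without virus give a second reference. Control virus against no virus called 0 members in limma, where 0.0337% of all genes were called. At an unadjusted p under 0.05 there were 4 of the 26 members, and 5.32% of all genes. These members were COL7A1, LAMC1, COL13A1 and COL2A1, each higher with control virus. The arrays labelled shMYCN against no virus called 5 members higher and 3 lower, which is 30.8% of the members and 30.8% of all genes. Under median scaling 1 was higher and 3 were lower. COL4A1 (-0.65 ± 0.08), COL5A1 (-0.55 ± 0.09), LAMA1 (-0.47 ± 0.09) and COL1A1 (0.71 ± 0.12) had the same direction as against control virus, with the same shMYCN arrays in both comparisons. LAMC1 (0.31 ± 0.07), COL6A1 (0.30 ± 0.09), COL7A1 (0.48 ± 0.16) and COL6A2 (0.43 ± 0.15) were called here, and each call was lost without at least 1 of the arrays without virus, where COL7A1 was as low as 0.30. Control virus against no virus gave LAMC1 0.21 ± 0.08, COL6A1 0.20 ± 0.10, COL7A1 0.48 ± 0.17 and COL6A2 0.14 ± 0.17, without a call. Labelled shMYCN against control virus, mean of 3 hours, gave 0.09, 0.11, -0.01 and 0.29 in that order, also without a call. Members called against control virus did not all pass against no virus. Without a call, COL9A2 gave 0.42 ± 0.15 (0.46 against control virus) and COL5A2 0.27 ± 0.12 (0.29 against control virus). COL2A1 gave -0.01 ± 0.13, against -0.35 with control virus as the reference, COL16A1 0.15 ± 0.11 against 0.31, COL26A1 0.15 ± 0.14 against 0.39, and LAMB1 0.12 ± 0.11 against 0.28. The no virus arrays also differ in time.

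The separation of the groups was counted without a model. All 6 arrays labelled shMYCN lay outside the range of the 5 others for 3 of the 26 tested members, COL1A1 above and COL4A1 and COL5A1 below, while 14.9% of all genes did so. Both arrays of 72 h labelled shMYCN lay outside the range of the 5 arrays without that hairpin for 18 members, 13 above and 5 below, against 61.6% of all genes. Read against the background, neither count sets the members apart.

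Several members had more than 1 probe set, and these were tested in a separate fit of 24655 probe sets. Of the 52 member probe sets tested, 7 were higher and 7 lower, and 30.1% of all probe sets were called. In the 16 genes with 2 or more tested probe sets, 18 of the 24 further probe sets had the sign of the brightest. COL2A1 had a second probe set called lower (-0.62 ± 0.14, limma adjusted p = 0.00658), with a mean signal of 11.2. Only the control virus arrays of 48 and 72 h were high, at 27 and 27.9. It measured 8.9 to 10.1 in the arrays labelled shMYCN except 72 h B, at 0.6. The control virus array of 24 h gave 9.9, and those without virus 9.4 and 10.1. The call thus rests on high control virus arrays, and it is no separate evidence that COL2A1 fell. The second probe set of COL13A1 fell by 0.31 ± 0.11 (limma adjusted p = 0.0431), and that of COL7A1 rose by 0.41 ± 0.13 (limma adjusted p = 0.0286), although neither gene passed by its brightest. In this fit COL5A2 did not pass for the mean of 3 hours (limma adjusted p = 0.052). Probe sets of a gene can detect different transcripts, and which were detected was not tested.

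**Figure D4:**
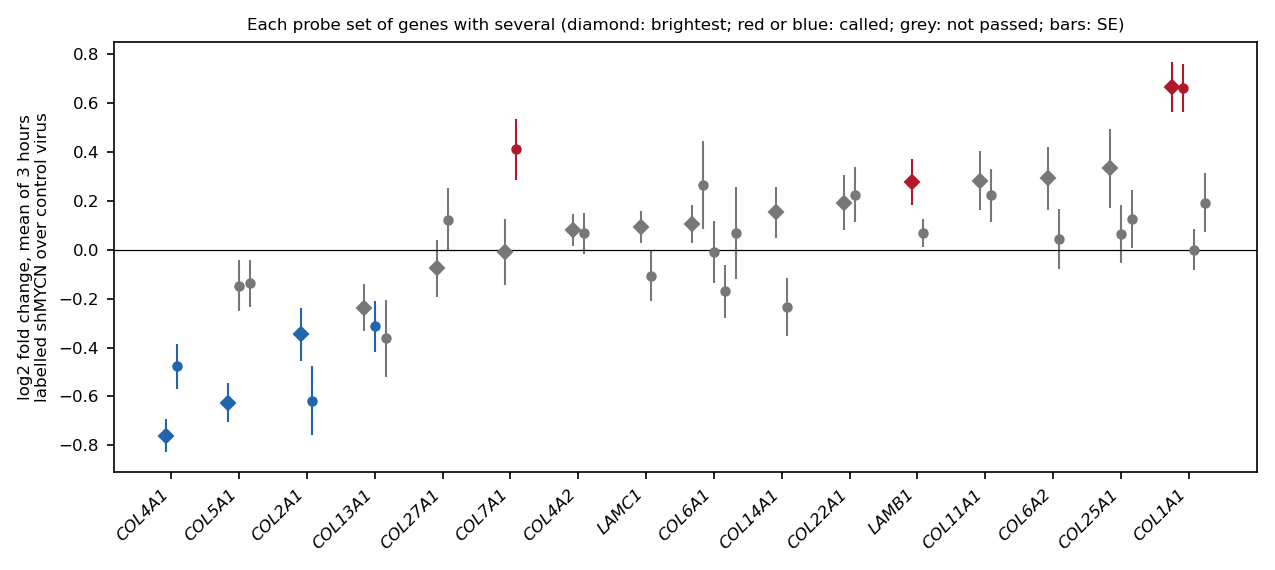
Log2 fold change for the mean of 3 hours (arrays labelled shMYCN over control virus) of every tested probe set in the 16 genes with several, with standard errors. Diamonds are the brightest probe set, colour marks probe sets called higher (red) or lower (blue), and grey ones did not pass. The 2 probe sets of COL4A1 (-0.76 and -0.48) fell together, while those of COL1A1 spread between 0.67 and 0.00.

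RefSeq promoter entries, 250 bases before to 50 after a start site, were held for 39 of the 53 genes, with 53 entries. The E-box CACGTG, the letters known as a binding sequence of MYC family proteins and the same on both strands, was in 0 of the 53 entries and in 7.26% of all 35116 entries. CCAAT, on either strand, was in 28.3% of the members' entries and in 34.6% of all, and the GC box GGGCGG was in 58.5% and in 45%. Entries of 1 gene overlap and are not independent. A match describes these letters in this window, and of the 26 tested genes only 18 had an entry.

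The genes that act on collagens and laminins were examined as lists. Of 30 tested genes of collagen synthesis and processing, 3 were higher and 10 lower (43.3% called, median log2 fold change -0.08). CRTAP, part of the complex that hydroxylates proline in collagen chains, fell to 177.8 and 198.4 at 72 h in the arrays labelled shMYCN, against 672.4 in the control virus array, and its log2 fold change over the 3 hours was -0.98 ± 0.06 (limma adjusted p = 6.93e-07). ADAMTS2, which removes the amino-terminal propeptide of fibrillar procollagens, gave -0.95 ± 0.13 (limma adjusted p = 1.67e-04), the cross-linking lysyl oxidase LOXL1 -0.58 ± 0.08 (limma adjusted p = 1.36e-04), and the prolyl hydroxylase subunit P4HA1 -0.55 ± 0.07 (limma adjusted p = 7.51e-05). At 72 h 3 of the list were higher and 9 lower. The share called in each list is to be read beside 37.9% over all genes, and no list was tested as a set.

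Among 19 tested basement membrane and matrix glycoproteins, 1 was higher and 3 were lower (21.1% called, median -0.01). The higher one was TNR, a tenascin of the nervous system (0.77 ± 0.13, limma adjusted p = 6.14e-04), and CCN1, a matricellular protein (-0.50 ± 0.09), FN1, which encodes fibronectin (-0.28 ± 0.07), and FBN2, a fibrillin (-0.26 ± 0.07), were lower. Of 15 tested receptors of collagen and laminin, 3 were higher and 3 lower (40% called, median -0.04). ADGRG1, an adhesion receptor that binds type III collagen, reached 972.8 and 964.6 at 72 h in the arrays labelled shMYCN, against 210.2 in the control virus array (1.38 ± 0.07 over the 3 hours, limma adjusted p = 2.35e-07). ITGA1, the alpha subunit of a collagen-binding integrin (-0.47 ± 0.08), and SDC1, a syndecan (-0.45 ± 0.10), fell, and the adhesion kinase PTK2 rose (0.26 ± 0.06).

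Of 23 tested genes of matrix breakdown and its inhibitors, 6 were higher and 5 lower (47.8% called, median 0.00). The proteases ADAMTS5 (0.57 ± 0.06), MMP24 (0.87 ± 0.10) and MMP16 (0.42 ± 0.06) rose, and MRC2, which takes up collagen fragments, fell (-0.59 ± 0.08). Of 24 tested genes of TGF-beta and BMP signalling, known regulators of collagen genes in other cells, 7 were higher and 9 lower (66.7% called, median -0.02). ID3 (-1.69 ± 0.09), ID1 (-1.54 ± 0.09) and SMAD5 (-0.72 ± 0.09) fell, and the ligand TGFB2 rose (0.72 ± 0.09). These lists hold different roles, and within each both directions were found.

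**Figure D5:**
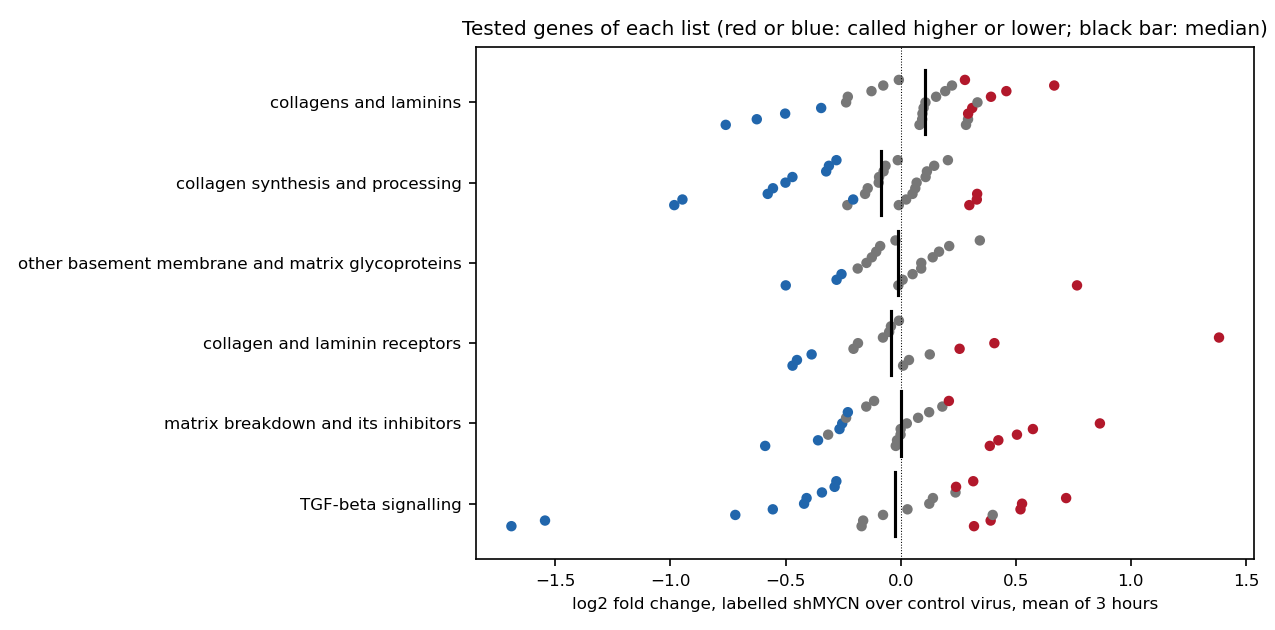
Log2 fold change for the mean of 3 hours (arrays labelled shMYCN over control virus) of the tested genes of the collagens and laminins and of the 5 other lists, 1 point per gene, with the median as a black bar. Red and blue points passed as higher and lower, and grey ones did not pass. Medians lie between -0.08 for synthesis and processing and 0.10 for collagens and laminins.

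Markers of other cell types were measured beside these genes. In cultured cells measured in bulk, fewer cells of a type and less RNA per cell cannot be told apart. Neuroblastoma markers were present, 6 of 7 measured above the filter, with DBH (-0.47 ± 0.08) called lower and CHGA (0.32 ± 0.07) called higher. Of 7 fibroblast markers 3 were above the filter. Their summed signal over the list was 951 to 1202 in the arrays labelled shMYCN, 878.6 to 1012 in the control virus arrays and 964.3 to 992.4 without virus, most of it from PDGFRA (755.4 to 1058.6). PDGFRB was called higher (0.35 ± 0.11, limma adjusted p = 0.03), at signals of 13.1 to 34.1. Of the 4 fibroblast markers below the filter, LUM, FAP and POSTN did not exceed 10.4, 6.1 and 6.6. Endothelial markers summed to 30.9 to 45.7, 33.9 to 45.3 and 40.3 to 43.7 in arrays labelled shMYCN, with control virus and without virus. Of these 6, 4 Schwann and 4 leukocyte markers measured, PECAM1 and CD79A alone were above the filter. Schwann markers summed to 12 to 45.3, 8.4 to 29.6 and 16.8 to 25.5, and leukocyte markers to 35 to 42.9, 36.2 to 40.8 and 29.5 to 44.9, in the same order of groups. No marker was listed at 0. The part of these cells in the collagen values was not tested.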

How the data were processed

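Total RNA of 11 IMR32 samples was measured on one-colour Affymetrix arrays. As deposited by the authors, each of 54675 probe sets has a linear signal intensity on each array. MAS5 and GCOS are named per the submitters' processing notes, without a version. From the values, every array had been scaled to a trimmed mean of 100 (over the central 96 percent of probe sets), so a change in total RNA would not show. How background was corrected is not given in the sources used here, nor are detection calls. Precision is limited by how many arrays there were.

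Of the probe sets, 41091 had 1 gene symbol, 1801 several and 11777 none here. Symbols of 41037 were updated through Entrez numbers with the RefSeq table of GRCh38.p14, and 62 control probe sets were left out. A probe set that names both LAMA5 and its antisense gene was no member. Each gene took the values of its brightest probe set (by mean log2 signal), and the dimmest 40 percent of 19775 genes (below a mean signal of about 14.8) were dropped, leaving 11865. In the probe set fit the same percentage was left out (mean signal under about 11.1).

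An offset of 16 was added before taking log2, which understates folds of dim genes. Means of 7 groups were fitted with limma 3.58.1 in R 4.3.3 (lmFit, eBayes with trend), with residual degrees of freedom of 4 and prior ones of 7.35. Only 4 groups had 2 arrays to give a spread; control virus arrays, single at their hour, were taken to vary as much. All tests were two-sided and adjusted by Benjamini-Hochberg over all genes or probe sets tested, with a threshold of 0.05. Errors are standard errors of the fit. The code was tested on simulated data. The 8 comparisons share arrays.

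The members, the gene lists and the tests were chosen with earlier results of these data known. Named were members called in any comparison, dim members by range, and up to 4 called genes of each other list by smallest p; the remaining tested members were added after their values were seen. Alternatives were other offsets (1 and 64), quantile and median scaling, filters of 0 and 60 percent, the mean of all probe sets, no trend, an additive model, the letters A and B as a block, a threshold of 0.01 and leaving out each array.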

Additional observations from a re-analysis of the deposited data

Results flagged for a closer look

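The effect at 72 h minus the effect at 24 h, each as arrays labelled shMYCN minus control virus on the log2 scale, passed the test of the difference itself for 4 members. It was -1.391 for LAMA1, -1.039 for COL4A1, -0.9444 for COL5A1 and 1.107 for COL5A2, with limma adjusted p of 0.00159, 0.00405, 0.0116 and 0.0184. Each difference rests on 1 control virus array at each of the hours, and the call of COL5A1 was lost without 24 h A labelled shMYCN (limma adjusted p = 0.0533), as was that of COL5A2, also lost without 72 h A (limma adjusted p up to 0.0608).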

How the results depend on the processing

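Of 48 calls of single members in 1 comparison, 973 values under alternatives gave 792 with the same direction and side of the threshold, 180 in the same direction that no longer passed and 1 that reversed, COL5A2 in the mean of 3 hours (-0.03681 without the control virus array of 72 h, where the mean runs over the other hours, and 0.5166 without that of 24 h). The 4 lower members of the mean of 3 hours were 2 under the additive model, and the 6 higher were 3 with no filter, 2 with the 60 percent filter, 3 with the mean of probe sets, 3 with the replicate block and 1 at a threshold of 0.01. The 5 members of 48 h were 2 with no filter, 1 with the mean of probe sets and 1 at 0.01. The 11 of 72 h were 5 with the 60 percent filter, 7 with the replicate block and 6 at 0.01. The 10 of 72 h against 24 h within shMYCN were 5 with the 60 percent filter, and the 4 differences of effects were 2 at 0.01. The 8 of shMYCN against no virus were 4 under median scaling, 5 with no filter and 5 at 0.01. The 14 member probe sets were 9 with no filter, 9 with the 60 percent filter, 9 under the additive model and 7 at 0.01. Stricter filters test fewer genes and stricter thresholds call fewer by construction; otherwise the cause was not tested. Leaving out each array gave 2 to 5 lower and 1 to 10 higher members for the mean of 3 hours, 0 to 1 at 24 h, 3 to 7 at 48 h, 7 to 15 at 72 h, 2 to 8 for the difference of effects, 6 to 11 within shMYCN, 0 to 0 for control virus against no virus, 5 to 10 for shMYCN against no virus, and 5 to 18 probe sets. The lowest 2 and 1 were without the control virus array of 72 h, and 10 higher without 48 h A labelled shMYCN.

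Median scaling moved the median of all genes by over 0.1 at 72 h, to -0.07 against 0.04, and within shMYCN, to -0.10 against 0.01. It called 1996 genes higher and 2318 lower in the mean of 3 hours, against 2629 and 1871 in the scaling as deposited, and 4 members higher and 5 lower. The letters A and B share only a name: with the replicate block, 3 members were higher, and differences A minus B correlated across genes at -0.0508 between 24 and 48 h, 0.0377 between 24 and 72 h and 0.1 between 48 and 72 h. An hour has no value without its own control virus array, nor has the difference of effects without those of 24 or 72 h, and the additive model gives the mean over hours alone. Members near the filter are limited by signal over background.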
